A study of Mus musculus with 24 samples.

Results

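Molecular chaperones and the folding factors of the endoplasmic reticulum (ER) were followed in splenic CD4+ T cells during activation. The set holds 39 genes, chosen by symbol among the 54446 Ensembl genes of the count table. They were grouped by where their products work, 21 in the cytosol, 4 in mitochondria and 14 in the ER. Xbp1, which encodes a transcription factor, was grouped with the ER. All 39 passed the filter on low counts. Messenger RNA was sequenced from 24 libraries of 6 C57BL6 mice. Wild-type (WT) mice carry the numbers 1, 3 and 4, and mice without the cytosolic DNA sensor AIM2 (Aim2-/-, a line obtained from Jackson Laboratories) the numbers 1, 2 and 4. CD4+ T cells were enriched by immunomagnetic negative selection, which removes the other cells with antibodies, and were taken either unstimulated (0 h) or 3, 6 or 24 h into culture with anti-CD3 and anti-CD28, antibodies that trigger the antigen receptor together with a costimulatory signal. There were 3 libraries per genotype and time, 1 from each mouse. Libraries of 1 genotype with the same number were taken as 1 mouse. The age of the mice is not given in the sources used here. The sources used here name no cell type-specific driver for the deletion.

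Chaperones hold unfolded proteins and help them to reach their folded state. In the cytosol, HSP70 proteins take up new chains with the help of J-domain proteins, HSP90 finishes a set of client proteins such as kinases, and the ring-shaped chaperonin CCT folds actin and tubulin. Mitochondria use their own HSP70 and the HSP60 and HSP10 chaperonin, and the ER folds secreted and membrane proteins with BiP, lectin chaperones and disulfide isomerases. Heat shock factors act on heat shock elements in promoters, and the unfolded protein response acts on ER stress elements. Activated T cells grow, divide and begin to secrete cytokines, which raises the load on all of these systems.

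Library totals ranged from 19715161 to 21627018 counts, so that 3 counts, the floor of detection used here, correspond to 0.129 to 0.155 CPM (counts scaled to a common library total). Floors cover counting error only. The CD4 T cell markers Cd3d, Cd3e, Cd3g, Cd4, Cd5, Lck and Cd28 summed to between 4064 and 4365 CPM at 0 h in all 6 mice. Aim2 itself did not separate the groups as labelled. Before stimulation WT 3 had 75 CPM and WT 4 had 67.5 CPM of Aim2, but the mouse labelled WT 1 had 21.5 CPM, next to 15.7 to 20.1 CPM in the Aim2-/- mice. Its 24 h library held 5.57 CPM, within the Aim2-/- range of 5.28 to 7.15 CPM, where the other WT mice had 34.0 and 38.6 CPM. The 4 libraries of that mouse are kept under their label. Several results that rest on them, mainly counts of calls, are also given without them. Most fold changes and medians within WT cells, the shares of counts and the wider list are given only with them.

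The promoters of the members hold different sequence elements, and those of 8 genes discussed later are shown because they carry the letters of an element of the heat shock or the ER stress response. RefSeq promoter windows on GRCm38.p6, from 250 bases before to 50 bases after the annotated start, were found for 31 of the 39 members. Both strands were searched. The ER stress element was read as CCAAT and CCACG with 9 bases between them, and the heat shock element as alternating GAA and TTC units 2 bases apart. Each stretch is written 5′ to 3′ on the strand of its gene, with the element in capitals, in either orientation. Hspa5 encodes BiP (chr2:34772020-34772048, plus strand), Calr and Canx the lectin chaperones calreticulin and calnexin (chr8:84847055-84847113 and chr11:50325780-50325838, minus strand), and Creld2 a resident ER protein (chr15:88819500-88819558, plus strand).
Hspa5: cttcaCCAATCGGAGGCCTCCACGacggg
Calr: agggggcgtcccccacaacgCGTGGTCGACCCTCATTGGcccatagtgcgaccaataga
Canx: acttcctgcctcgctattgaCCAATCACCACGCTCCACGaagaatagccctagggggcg
Creld2: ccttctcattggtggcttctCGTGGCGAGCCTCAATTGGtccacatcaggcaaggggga

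Heat shock elements are shown for the mitochondrial chaperonin genes Hspd1 and Hspe1, which lie head to head on chromosome 1 and share 1 stretch (chr1:55088053-55088082) read on opposite strands, for Hsph1 (chr5:149636351-149636380, minus strand) and for Hspa1a (chr17:34972233-34972280, minus strand). The neighbouring gene Hspa1b holds the same 48 letters as Hspa1a at chr17:34959315-34959362, on the minus strand.
Hspd1: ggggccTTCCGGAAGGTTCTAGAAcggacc
Hspe1: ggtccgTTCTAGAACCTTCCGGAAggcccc
Hsph1: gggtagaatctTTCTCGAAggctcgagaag
Hspa1a: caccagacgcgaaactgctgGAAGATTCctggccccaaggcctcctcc

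The ER stress element occurred in 6 of the 12 ER members with a window (Hspa5, Hsp90b1, Calr, Canx, Pdia6 and Creld2), in 0 of 16 cytosolic and in 0 of 3 mitochondrial members. Among all 27025 genes with a window, 37 (0.137%) held it. A heat shock element of 2 units was found in 9 of the 31 members (29%), against 17% of all genes, and in 0 of the 12 ER members. The members with at least 3 units in a row were Hspd1 and Hspe1, in the stretch shown, and Hsph1, in which the run lay after the start of the gene while the stretch shown holds 2 units. These were 3 of 31, and 0.662% of all genes had such a run. The core of another ER element, TGACGTGG, was in 0 of 31 members and in 0.714% of all genes. A match of letters does not show that a factor binds there. For the responses described next, at 24 h the 6 ER members with an ER stress element had a median log2 fold change of 1.11 (range 0.45 to 1.62), and the 6 with a window but without these letters had 1.16 (range -0.40 to 3.74), as means of both genotypes. These 6 include Dnajb11, which holds a related element, read as ATTGG and CCACG with 1 base between them, found in 0.0444% of all genes. Among cytosolic and mitochondrial members at 24 h, the 9 with a heat shock element had a median of 1.66 (range -3.43 to 3.79). The 10 with a window but without one had 1.89 (range -0.21 to 2.24), again as means of both genotypes.

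Most members were higher after stimulation, and by 24 h in all 3 compartments. No library came from cells cultured without the antibodies, so changes due to culture and to stimulation cannot be told apart, here and below. In WT cells 20 members were higher and 3 lower than at 0 h after 3 h (edgeR's quasi-likelihood F test over 15325 genes, adjusted p under 0.05, here named called), beside 16.2% of all tested genes higher and 16.4% lower. After 6 h, 34 were higher and 2 lower (all genes 26.4% and 24.8%), and after 24 h, 34 were higher and 3 lower (36.6% and 34.8%). Among Aim2-/- libraries the members called were 11 higher and 3 lower at 3 h (16.1% and 14.6% of all genes), 31 and 2 at 6 h (28.5% and 22.7%), and 34 and 4 at 24 h (36.8% and 33.5%). The median log2 fold change over the members in WT cells was 0.32, 1.12 and 1.68 at 3, 6 and 24 h, where the median over all tested genes was 0.02, 0.02 and -0.01. Cells of Aim2-/- mice had medians of 0.17, 0.75 and 1.42, against 0.02, 0.08 and 0.03 over all genes. Without the mouse labelled WT 1, 15 of the 23 WT calls at 3 h remained and 8 did not (Hsp90aa1, Hsp90ab1, Ahsa1, Tcp1, Cct2, Hspa9, Trap1 and Hyou1). At 6 h 3 of the 36 WT calls were lost (Hspa1a, Hspa1b and Dnaja2), while at 24 h all 37 were kept. Of the Aim2-/- calls, which share the estimate of the spread, 2 of 14 at 3 h and 3 of 33 at 6 h were lost. The log2 fold changes of the 8 without that mouse were 0.21 (Hyou1) to 0.68 (Hsp90aa1), and leaving out WT 3 or WT 4 left 12 and 15 calls at 3 h.

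Together the members took a growing share of all counts. In unstimulated WT cells the share was 1.02% ± 0.033 (SD, n = 3). It was 1.23% ± 0.0971 at 3 h, 2.15% ± 0.0794 at 6 h, and by 24 h it had reached 3.24% ± 0.204. In cells of Aim2-/- mice it went from 1.11% ± 0.0351 to 1.20% ± 0.0902, 1.72% ± 0.246 and 2.82% ± 0.305. The cytosolic members held most of the 24 h share, with 2.11% ± 0.143 of WT counts, followed by the ER members with 0.870% ± 0.044 and the mitochondrial members with 0.255% ± 0.018. The largest single contributor was the cytosolic member Hsp90ab1, with WT means of 1829 CPM at 0 h and 8049 CPM at 24 h. The next at 24 h was Calr, with 1664 CPM. In bulk libraries more cells that express a gene and more RNA per cell cannot be told apart.

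**Figure D1:**
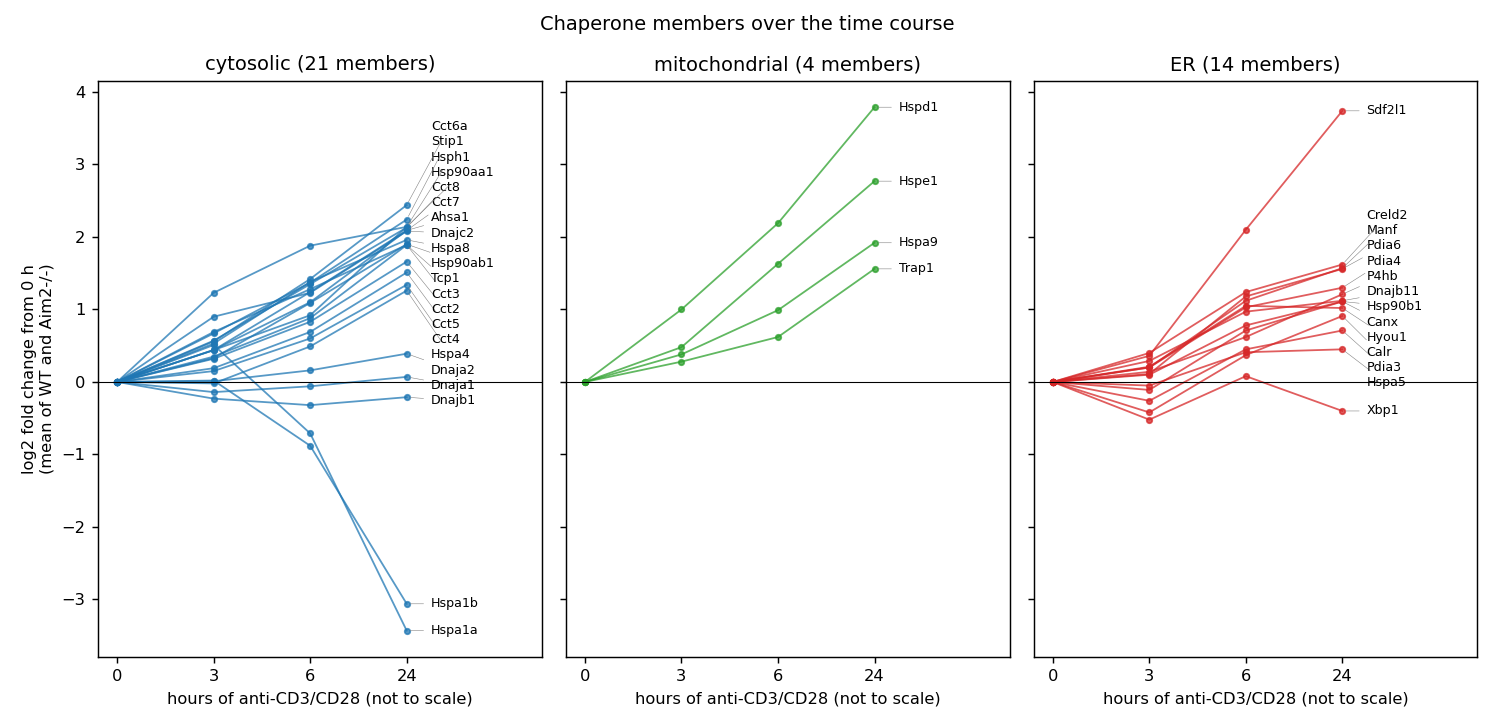
Mean log2 fold change against 0 h (y axis, mean of the WT and Aim2-/- fits) of each of the 39 members at 3, 6 and 24 h (x axis, hours), in 1 panel per compartment with 21 cytosolic, 4 mitochondrial and 14 ER members. Most lines rise, Hspd1 and Sdf2l1 reach 3.79 and 3.74 at 24 h, and Hspa1a and Hspa1b fall to -3.43 and -3.06.

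The mitochondrial chaperones rose together and had the highest median of the 3 compartments at 24 h. All 4 were called higher at 6 and 24 h in both genotypes, with a median log2 fold change at 24 h of 2.41 in WT and 2.28 in Aim2-/- cells. Hspd1 encodes HSP60, the barrel of the mitochondrial chaperonin, and lies on chromosome 1 (chr1:55077835-55088243, minus strand). At 0 h it had 56.3, 46.2 and 49.1 CPM in mice WT 1, 3 and 4 and 55.9, 52.7 and 60.2 CPM in Aim2-/- mice 1, 2 and 4. At 24 h the values were 799, 876 and 776 CPM in WT and 556, 754 and 681 CPM in Aim2-/- cells, all far above the unstimulated values. The rise was 16.2-fold in WT (log2 4.01 ± 0.20 SE, adjusted p = 4.7e-13) and 11.8-fold in Aim2-/- cells (log2 3.56 ± 0.20, adjusted p = 2.9e-12). Hspd1 was already 2.17-fold higher at 3 h in WT (adjusted p = 7.5e-05) and 1.85-fold higher in Aim2-/- cells (adjusted p = 8.6e-04).

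Hspe1, the HSP10 lid of the same chaperonin, stood at 23.0, 20.9 and 15.6 CPM in WT and 18.5, 18.0 and 21.5 CPM in Aim2-/- cells at 0 h. By 24 h it reached 125, 135 and 129 CPM in WT and 144, 122 and 147 CPM in Aim2-/- cells, without overlap with 0 h. The fold change was 6.53 (log2 2.71 ± 0.21, adjusted p = 1.8e-10) in WT and 7.11 (2.83 ± 0.21, adjusted p = 1.3e-10) in Aim2-/- cells. Although Hspd1 and Hspe1 share their promoter stretch, Hspd1 rose by 3.79 and Hspe1 by 2.77 on the log2 scale as means of both genotypes. Hspa9 encodes the mitochondrial HSP70 mortalin, which pulls proteins through the inner membrane, and went from 302, 295 and 306 CPM to 1268, 1418 and 1216 CPM in WT cells. The Aim2-/- mice went from 331, 316 and 341 to 977, 1229 and 1054 CPM. Its log2 fold changes were 2.11 ± 0.15 and 1.72 ± 0.15. Trap1, the mitochondrial HSP90, rose least of the 4, by 1.70 ± 0.11 in WT and 1.42 ± 0.11 in Aim2-/- cells. The annotated exons of Hspd1 and Hspe1 overlap by 112 bases on opposite strands, and 44.3% of the 51-base windows of Hspd1 and 44.1% of those of Hspe1 occur in other genes. The annotated copies that share windows with Hspd1 had 1.78 CPM in all at 24 h as a mean of 6 libraries, where Hspd1 had 740 CPM.

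Among the 21 cytosolic members, 17 were called higher at 24 h in both genotypes, with medians of 2.05 in WT and 1.72 in Aim2-/- cells. The HSP90 genes and their co-chaperones rose by 1.90 to 2.24 on the log2 scale as means of both genotypes. TPM here scales counts by library and by the joined length of all annotated exons of a gene. On this scale Hsp90ab1, the constitutive HSP90, was the highest member at 0 h (2260 TPM) and at 24 h (7790 TPM). It went from 1786, 1674 and 2027 CPM to 7606, 8690 and 7850 CPM in WT cells, and from 1950, 2035 and 2101 CPM to 5197, 7760 and 6227 CPM in Aim2-/- cells. The rises were 4.4-fold and 3.15-fold. Hsp90aa1, the inducible HSP90, rose 5.67-fold and 3.41-fold. Of the 51-base windows of Hsp90aa1, 58.3% occur in other genes. Its annotated copies had 1.3 CPM in all at 24 h as a mean of 6 libraries, where Hsp90aa1 had 292 CPM. Stip1 (HOP), which hands clients from HSP70 to HSP90, rose 5.54-fold and 4.05-fold, and Ahsa1 (AHA1), which speeds the ATPase of HSP90, 4.79-fold and 3.81-fold.

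The 8 subunits of CCT moved as a block. All 8 were called higher at 6 h and at 24 h in both genotypes, with mean log2 fold changes of 0.60 to 1.42 at 6 h and 1.34 (Cct4) to 2.44 (Cct6a) at 24 h. Cct6a had 179, 175 and 184 CPM in WT and 192, 175 and 202 CPM in Aim2-/- cells at 0 h. At 24 h it had 1011, 1116 and 1001 CPM in WT and 864, 1060 and 953 CPM in Aim2-/- cells, so that the times did not overlap. These are rises of 5.81-fold (log2 2.54 ± 0.14, adjusted p = 1.3e-12) and 5.05-fold (2.34 ± 0.14, adjusted p = 5.6e-12). A CCT ring holds 1 copy of each subunit, and TPM at 24 h ran from 441 for Cct3 to 1476 for Cct2. The joined exons span 6370 bases for Cct3 and 2557 for Cct2, but their longest protein-coding transcripts have 1977 and 1959 bases. In CPM the WT means at 24 h were 937 and 1250, so the TPM gap depends on the exon length used. The exons of Cct6a overlap those of Psph by 452 bases on the other strand, and whether counting used the strand is not stated.

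Hsph1, Dnajc2 and Cct3 changed most among cytosolic members at 3 h. Hsph1 encodes HSP110, a nucleotide exchange factor that resets HSP70, and went from 104, 99.9 and 101 CPM at 0 h to 251, 287 and 206 CPM at 3 h in WT cells. The Aim2-/- mice went from 104, 105 and 107 to 199, 247 and 267 CPM. Every stimulated value was above every unstimulated one, and the rise was 2.44-fold in WT (log2 1.28 ± 0.14, adjusted p = 8.6e-07) and 2.26-fold in Aim2-/- cells (1.18 ± 0.14, adjusted p = 3.8e-06). At 6 h Hsph1 had 442, 449 and 427 CPM in WT and 253, 383 and 351 CPM in Aim2-/- cells, and at 24 h 489, 537 and 477 CPM in WT and 358, 496 and 395 CPM in Aim2-/- cells. Of its mean log2 change at 24 h, 57.4% was thus reached at 3 h and 87.6% at 6 h. Dnajc2, a J-domain protein of the ribosome that serves new chains, rose 1.89-fold in WT and 1.83-fold in Aim2-/- cells at 3 h and reached 43.2% of its 24 h change by then. Cct3 rose 1.73-fold and 1.5-fold at 3 h. The constitutive HSP70, Hspa8, rose 4.37-fold in WT and 3.49-fold in Aim2-/- cells by 24 h, and Hspa4, another HSP110-type factor, 2.62-fold and 2.18-fold. Of the 51-base windows of Hspa8, 74.6% occur in other genes, mostly processed copies, whose summed level was 8.76 CPM at 24 h against 1058 CPM for Hspa8.

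Not all cytosolic members rose. The stress-inducible HSP70 genes Hspa1a and Hspa1b, the usual readout of heat shock, fell. Hspa1a had 6.80, 3.98 and 4.61 CPM in WT and 12.2, 6.89 and 7.53 CPM in Aim2-/- cells at 0 h. At 24 h only 0.354, 0.360 and 0.462 CPM were left in WT and 1.12, 0.654 and 1.18 CPM in Aim2-/- cells, still above the floor of detection. The log2 fold change was -3.69 ± 0.40 (adjusted p = 3.7e-08) in WT and -3.16 ± 0.36 (adjusted p = 8.9e-08) in Aim2-/- cells. At 3 h Hspa1a stood at 9.07, 7.93 and 6.16 CPM in WT and 16.7, 7.42 and 11.9 CPM in Aim2-/- cells, differences from 0 h that were not called (adjusted p = 0.166 and 0.321). With the mouse as a block the WT difference at 3 h was called (log2 0.60 ± 0.19, adjusted p = 0.0124), as was the Aim2-/- fall at 6 h (-0.44 ± 0.18, adjusted p = 0.0429). Hspa1b went from 10.1, 6.25 and 7.15 CPM to 1.47, 1.49 and 0.821 CPM in WT cells and from 21.5, 8.71 and 12.1 CPM to 1.61, 1.01 and 1.13 CPM in Aim2-/- cells. Its log2 fold changes were -2.63 ± 0.37 and -3.49 ± 0.37. At 6 h the WT falls of Hspa1a and Hspa1b (0.505 and 0.512 of the 0 h level) were called, but not without the mouse labelled WT 1, and for Hspa1a not without WT 4. Because Hspa1a and Hspa1b share 66.1% and 62% of their windows with other genes, mainly with each other, how their counts are divided between them is uncertain. Gm20481 and Gm10501, which share windows with both genes, rose from 1.21 to 4.32 CPM in sum between 0 h and 24 h, so at 24 h they exceeded Hspa1a at 0.689 CPM. The exons of Gm20481 overlap those of Hspa1a by 564 bases on the other strand.

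Dnajb1, the J-domain partner of the inducible HSP70, was 136, 141 and 149 CPM in WT at 0 h and 126, 139 and 131 CPM at 24 h, values that overlapped. In Aim2-/- cells it went from 127, 149 and 140 CPM to 89.2, 130 and 115 CPM. It was called lower in Aim2-/- cells at all 3 times (0.805, 0.744 and 0.805 of the 0 h level), although neither at 3 h nor at 24 h without mouse Aim2-/- 4, nor at 3 h without WT 3 or WT 4, and in WT cells the ratios were 0.899, 0.862 and 0.930 (adjusted p = 0.285, 0.0903 and 0.374). With the mouse as a block the WT value at 6 h was called too (log2 -0.21 ± 0.07, adjusted p = 0.00988), and the interactions of genotype and stimulation were not called for this gene in either fit. Dnaja1 stayed between 78.6 and 106 CPM in all 24 libraries and was called at no time against 0 h.

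**Figure D2:**
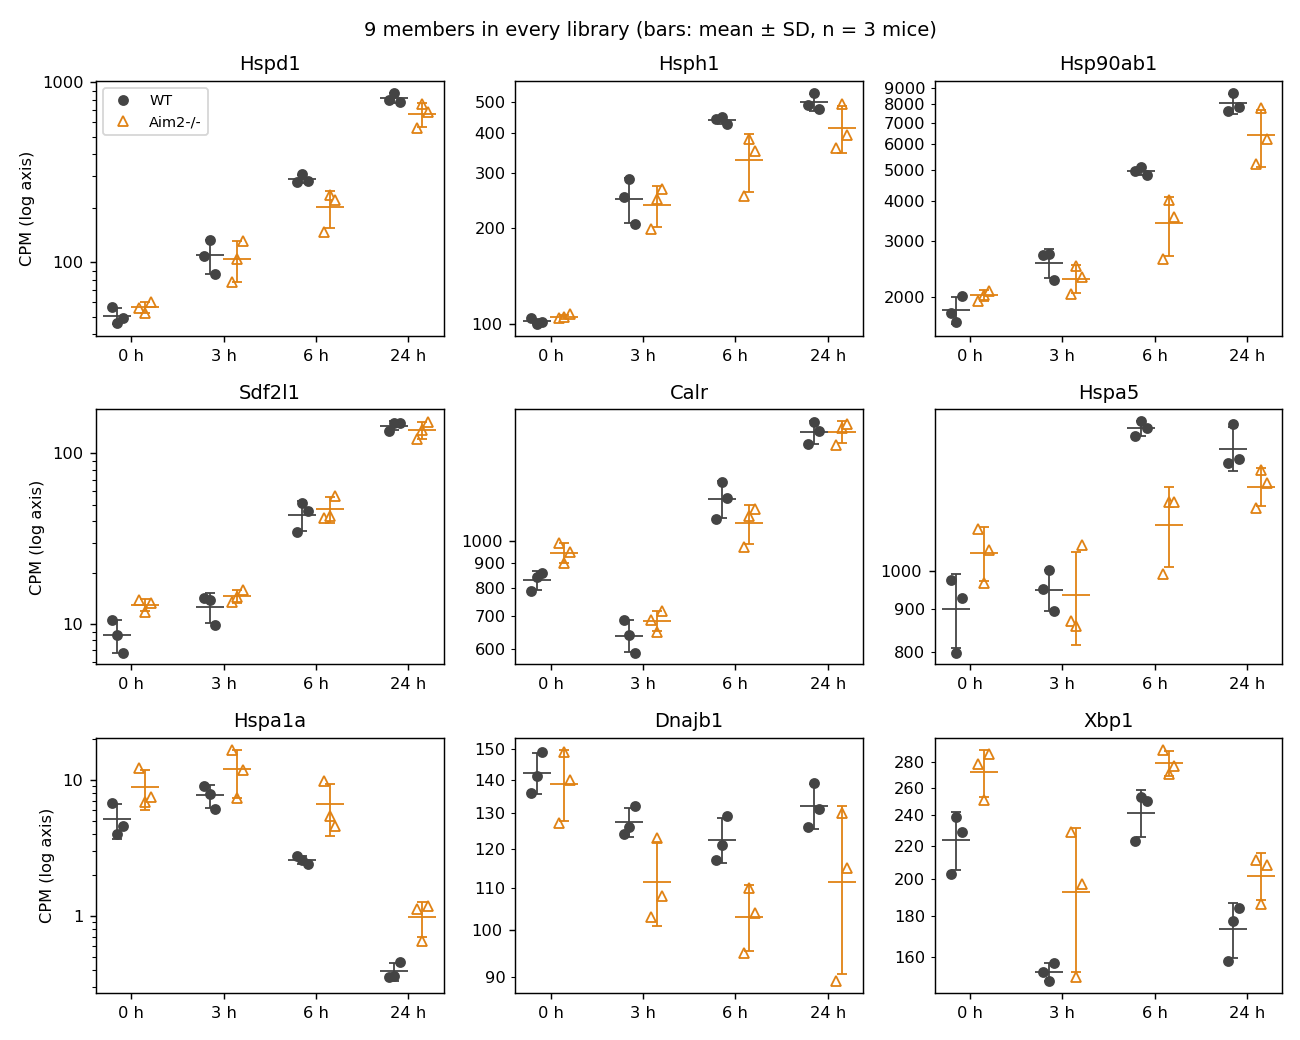
CPM (y axis, log scale) of 9 members in each of the 24 libraries by time (x axis, hours), with WT and Aim2-/- libraries side by side, points for single libraries and bars for the mean ± SD of 3 mice. The means of Hspd1 and Sdf2l1 climb at every time, Hsph1 has made most of its change by 6 h, the means of Calr and Xbp1 are lowest at 3 h and higher at 6 h, and Hspa1a falls below 1.20 CPM at 24 h in all 6 mice.

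Few ER members had risen at 3 h, and most had at 6 h. At 3 h, 4 of 14 were called higher and 3 lower in WT, and 1 higher and 2 lower in Aim2-/- cells, with medians of 0.16 and 0.11. Apart from the 4 higher in WT, these counts were near or below the shares of all genes called at 3 h, 16.2% higher and 16.4% lower in WT and 16.1% and 14.6% in Aim2-/- cells. At 6 h, 13 in WT and 11 in Aim2-/- cells were called higher and none lower (medians 1.04 and 0.67), and at 24 h 13 of 14 were called higher and 1 lower in both genotypes (medians 1.23 and 1.04). Sdf2l1, a partner of the ER J-domain protein Dnajb11, changed most. Sdf2l1 lies on chromosome 16 (chr16:17130138-17132383, minus strand) and had 10.5, 8.58 and 6.79 CPM in WT and 13.8, 11.7 and 13.3 CPM in Aim2-/- cells at 0 h. At 6 h it had 34.4, 51.1 and 45.8 CPM in WT and 42.1, 42.9 and 56.5 CPM in Aim2-/- cells. At 24 h it reached 135, 151 and 151 CPM and 121, 137 and 153 CPM. The time points 0, 6 and 24 h did not overlap, and the 24 h rise was 16.9-fold (log2 4.08 ± 0.19, adjusted p = 1.1e-13) in WT and 10.6-fold (3.41 ± 0.18, adjusted p = 1.1e-12) in Aim2-/- cells. In the ranking of the 39 members by TPM, Sdf2l1 moved from place 37 to place 22, and Hspd1 from 31 to 8.

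Creld2, a secreted and luminal ER protein, and Manf, a secreted factor released on ER stress, followed. Creld2 went from 29.8, 33.9 and 30.3 CPM to 109, 120 and 118 CPM in WT cells, a 3.70-fold rise (log2 1.89 ± 0.11, adjusted p = 3.2e-12). In Aim2-/- cells it went from 52.2, 40.9 and 52.7 CPM to 130, 115 and 125 CPM, 2.54-fold (1.34 ± 0.11, adjusted p = 5.0e-10). The 24 h values of the genotypes overlapped and the 0 h values did not. Manf rose from 75.6, 83.2 and 76.3 to 238, 248 and 251 CPM in WT (3.13-fold) and from 102, 90.2 and 107 to 293, 251 and 291 CPM in Aim2-/- cells (2.79-fold).

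BiP and calreticulin, the ER members with the highest TPM at 0 h (810 for Hspa5 and 1081 for Calr), changed less. Hspa5 (BiP) had 975, 798 and 927 CPM at 0 h, 1447, 1507 and 1479 CPM at 6 h and 1343, 1495 and 1357 CPM at 24 h in WT cells. In Aim2-/- cells it had 1122, 968 and 1058 CPM at 0 h, 991, 1206 and 1207 CPM at 6 h and 1189, 1319 and 1271 CPM at 24 h. The groups at 0 h and 6 h overlapped in Aim2-/- but not in WT cells. Hspa5 was 1.64-fold higher at 6 h in WT (adjusted p = 6.0e-06) and 1.08-fold in Aim2-/- cells, not called (adjusted p = 0.378), and 1.55-fold and 1.20-fold higher at 24 h. The 24 h value in Aim2-/- cells (adjusted p = 0.0277) was not called without Aim2-/- 2, Aim2-/- 4, WT 3 or WT 4. Calr first fell, from 789, 843 and 858 to 687, 642 and 590 CPM in WT and from 988, 898 and 946 to 690, 652 and 717 CPM in Aim2-/- cells at 3 h. These falls to 0.771 (log2 -0.38 ± 0.09, adjusted p = 0.0023) and 0.727 (-0.46 ± 0.09, adjusted p = 4.6e-04) of the 0 h level were without overlap. At 24 h Calr was at 1573, 1749 and 1671 CPM and at 1569, 1696 and 1729 CPM, 2.00-fold and 1.76-fold above 0 h. Pdia3, the disulfide isomerase that works with calreticulin and calnexin, was also lower at 3 h in WT cells (0.798, adjusted p = 0.00279) and 0.874 of 0 h in Aim2-/- cells (adjusted p = 0.0669, with the mouse as a block 0.0395). The other isomerases Pdia4, Pdia6 and P4hb rose 2.58-fold, 3.20-fold and 2.54-fold at 24 h in WT and 2.35-fold, 2.71-fold and 2.12-fold in Aim2-/- cells.

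Hyou1 and Hsp90b1, the ER HSP110 and HSP90 (GRP94), differed in timing. Hyou1 had gained 103% of its 24 h change by 6 h and did not change further (24 h against 6 h in all mice, log2 -0.03 ± 0.07, adjusted p = 0.686). Hsp90b1 was at 0.931 and 0.926 of its 0 h level at 3 h, values that were not called, and then rose to 2.32-fold and 2.00-fold at 24 h. Xbp1, whose spliced form is a transcription factor of the unfolded protein response, was the ER member called lower at 24 h, although it shared its fall at 3 h with Calr and Pdia3 and its rise from 3 to 6 h with all other ER members. It had 203, 239 and 229 CPM at 0 h, 153, 149 and 157 CPM at 3 h, 223, 253 and 250 CPM at 6 h and 158, 177 and 184 CPM at 24 h in WT cells. The Aim2-/- values were 278, 251 and 286, then 229, 151 and 197, then 290, 270 and 277, and then 211, 186 and 208 CPM. Xbp1 thus fell at 3 h, returned at 6 h and was again lower at 24 h in both genotypes (log2 -0.37 ± 0.11, adjusted p = 0.00567 in WT, and -0.43 ± 0.11, adjusted p = 0.00177 in Aim2-/- cells). Counts per gene do not show how much of the Xbp1 mRNA was spliced.

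The compartments therefore rose at different times, which the steps between neighbouring times show mouse by mouse. From 0 to 3 h the median change of log2 CPM over the cytosolic members lay between 0.14 and 0.70 in the 6 mice and that of the ER members between -0.01 and 0.26, with the cytosolic median above the ER median in 6 of 6 mice. From 3 to 6 h the order turned. The ER median rose by 0.45 to 0.98 and the cytosolic one by 0.26 to 0.77, the ER median being higher in 6 of 6 mice, by 0.12 to 0.35. From 6 to 24 h the cytosolic median (0.64 to 0.95) was again above the ER median (0.24 to 0.43) in 6 of 6 mice. The mitochondrial median rose by 0.20 to 0.68, 0.53 to 1.30 and 0.91 to 1.4 in the 3 steps. This order held in the mouse labelled WT 1 and in each of the others. Members are not replicates, so no p is attached to the medians.

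**Figure D3:**
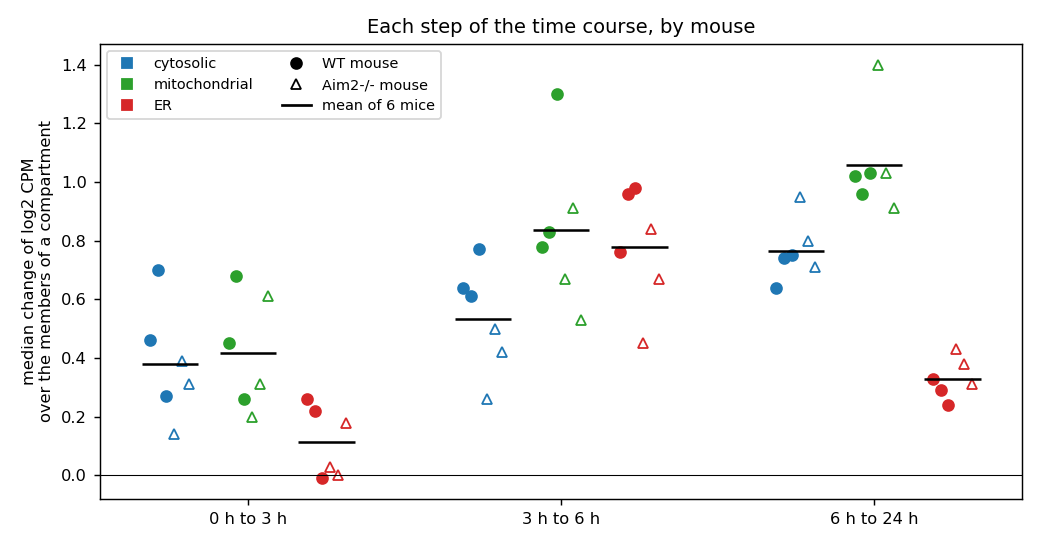
Median change of log2 CPM (y axis) over the cytosolic, mitochondrial and ER members in each of the 6 mice for the steps 0 to 3 h, 3 to 6 h and 6 to 24 h (x axis), with circles for WT mice, triangles for Aim2-/- mice and a line at the mean of the 6 mice. The ER points lie above the cytosolic points of the same mouse in the step from 3 to 6 h and below them in the other steps.

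In the fit across genes, 34 members were called higher and 2 lower at 6 h than at 3 h over all mice (20.8% and 17.4% of all genes), among them all 14 ER members, 4 of 4 mitochondrial and 16 of 21 cytosolic members. The medians were 0.81, 0.88 and 0.50, where the median of all genes was 0.02. At 24 h against 6 h, 31 were higher and 3 lower (33.6% and 34.6% of all genes), with medians of 0.78 for cytosolic, 1.04 for mitochondrial and 0.35 for ER members and -0.05 for all genes. The 3 lower members were Hspa1a, Hspa1b and Xbp1. As a share of the 24 h change, among members with a mean log2 change over 1, the ER members had made 12.1% (median of 10) at 3 h and 73.6% at 6 h, and the cytosolic members 21% (median of 16) and 58.0%. The 4 mitochondrial members had made 18.9% and 54.6%.

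Calls between the genotypes fell mostly at 6 h, among the members as among all tested genes. Between Aim2-/- and WT cells 1 member was called at 0 h (5.23% of all genes called), 0 at 3 h (0.294%), 9 at 6 h (15.8%) and 0 at 24 h (0.666%). At 3 h and 24 h, 3 and 10 members had an unadjusted p under 0.05 by edgeR, and DESeq2 and limma-voom also called 0 of 39. The median log2 difference over the members was 0.13, -0.05, -0.25 and -0.18 at 0, 3, 6 and 24 h, beside -0.01, 0, 0.05 and 0.01 over all genes. At 0 h the difference was positive for 13 of 14 ER members (median 0.20), 15 of 21 cytosolic (0.05) and 3 of 4 mitochondrial members (0.07), and within the cytosol for all 5 HSP70 and HSP110 genes (0.25) and all 4 genes of HSP90 and its co-chaperones (0.19). The 6 cytosolic members with a negative difference all lay among the CCT and J-domain genes, and no cytosolic member was called. The compartments were not tested against each other. Without the mouse labelled WT 1 the 0 h medians were 0.19 (14 of 14 positive), 0.05 and 0.11, and the median over all members was 0.08, -0.04, -0.28 and -0.19 at 0, 3, 6 and 24 h.

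The gene called at 0 h was Creld2, at 52.2, 40.9 and 52.7 CPM in Aim2-/- and 29.8, 33.9 and 30.3 CPM in WT cells, without overlap (log2 0.63 ± 0.11, adjusted p = 0.00514). It was called also without the mouse labelled WT 1 (0.60 ± 0.13, adjusted p = 0.0141), but not without WT 4 (adjusted p = 0.0631). Without WT 1, Sdf2l1 was also called higher at 0 h (0.75 ± 0.18, adjusted p = 0.0207). Markers of other cells stood higher in the same libraries. At 0 h the 5 plasma cell markers Jchain, Sdc1, Tnfrsf17, Mzb1 and Derl3 summed to 390 to 771 CPM in Aim2-/- and 43.0 to 170 CPM in WT mice, with 5 of 5 higher, and the 7 B cell markers to 16.3 to 42.5 against 8.41 to 10.4 CPM, with 6 of 7 higher. The 7 myeloid markers summed to 95.8 to 348 against 27.2 to 51.6 CPM and the 3 basophil markers to 49.6 to 93.5 against 6.59 to 9.45 CPM. The 5 erythroid markers overlapped (20.6 to 332 against 7.40 to 71.5 CPM), as did NK cell (12.4 to 23.5 against 10.3 to 16.3 CPM) and CD8 T cell markers (8.12 to 10.9 against 9.76 to 11.4 CPM). For the plasma cell, B cell, myeloid and basophil sums the exact permutation test gave p = 0.1, the smallest that 3 against 3 mice allow. S100a9 and Cd8a had no count in the mouse labelled WT 1 at 0 h, nor Ebf1 in mouse Aim2-/- 4. In a model that also held scores of the B cell, plasma cell, myeloid and erythroid markers, Creld2 was still called (0.54 ± 0.12, adjusted p = 0.0232). That fit gave Aim2 itself a difference of 0.64 (adjusted p = 0.556) in place of -1.58, so it also takes up what separates the genotypes, and how much of the Creld2 difference moves with the other cells cannot be told apart from genotype.

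At 6 h, 7 members were lower in Aim2-/- cells, namely Hyou1, Canx, Hsp90ab1, Hspa5, Hspa4, Hsp90aa1 and Cct5, and Hspa1a and Hspa1b were higher. Hsp90ab1 had 4956, 5086 and 4822 CPM in WT and 2633, 4026 and 3564 CPM in Aim2-/- cells, which did not overlap (log2 -0.54 ± 0.15, adjusted p = 0.0215). Hsp90aa1 had 163, 153 and 152 CPM against 81.6, 124 and 91.8 CPM (-0.65 ± 0.19, adjusted p = 0.0276). In both, mouse Aim2-/- 1 was lowest. Hyou1 had 499, 530 and 473 CPM against 326, 423 and 390 CPM (-0.40 ± 0.10, adjusted p = 0.0175). Canx had 642, 655 and 606 CPM against 404, 536 and 467 CPM (-0.43 ± 0.11, adjusted p = 0.0182), and the BiP gene Hspa5 -0.38 ± 0.10 (adjusted p = 0.022). Hspa4 and Cct5 differed by -0.37 (adjusted p = 0.0276) and -0.43 (adjusted p = 0.0405), again lowest in Aim2-/- 1.

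Hspa1a was the largest difference in the other direction. It stood at 9.75, 5.45 and 4.62 CPM in Aim2-/- and 2.75, 2.58 and 2.43 CPM in WT cells at 6 h (log2 1.35 ± 0.32, adjusted p = 0.0147), and Hspa1b was 2.02-fold higher (adjusted p = 0.0443). Genes of activation were also lower at 6 h. Il2ra (the high-affinity IL-2 receptor chain) had a log2 difference of -0.50 ± 0.14 (adjusted p = 0.0286) and Myc of -0.59 ± 0.19 (adjusted p = 0.0405), both lower in Aim2-/- cells, and Il2 gave -0.42 ± 0.25 (adjusted p = 0.243). The Il2ra and Myc calls were lost without WT 1 (adjusted p = 0.0742 and 0.0504), without Aim2-/- 1 (0.125 and 0.0937) and with marker scores in the model (0.418 and 0.611). Without the mouse labelled WT 1, 3 of the 9 members called at 6 h were kept (Hspa1a, Hyou1 and Hspa5), while the log2 differences of Hsp90ab1 (-0.54), Canx (-0.43) and Hspa4 (-0.39) stayed about as large. Without Aim2-/- 1, WT 3 or WT 4, 0 of the 9 were kept, and without Aim2-/- 4 only Hspa1a was. With the marker scores in the model 0 of 39 members were called at 6 h, where 2.00% of all genes were. In that fit the difference of Hspa5 was -0.41 ± 0.15 and that of Canx -0.35 ± 0.16, those of Hsp90ab1 and Hyou1 were -0.31 ± 0.17 and -0.20 ± 0.15, and those of Hspa1a and Hspa1b fell to 0.19 ± 0.32 and 0.02 ± 0.35. Plasma cell markers at 6 h summed to 349 to 771 CPM in Aim2-/- and 32.1 to 148 CPM in WT cells, B cell markers to 15.9 to 46.8 and 7.06 to 12 CPM, myeloid markers to 48.4 to 201 and 15.5 to 38.2 CPM, basophil markers to 64.6 to 130 and 7.40 to 14.2 CPM and erythroid markers to 21.6 to 485 and 7.59 to 64.0 CPM. Ms4a1 and Pax5 in WT 4, Tnfrsf17 in WT 3 and Ebf1 in Aim2-/- 4 had no count at 6 h. The highest sum of each of these marker sets was that of mouse Aim2-/- 1. The part of activation and of other cells in the 6 h differences was not tested.

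**Figure D4:**
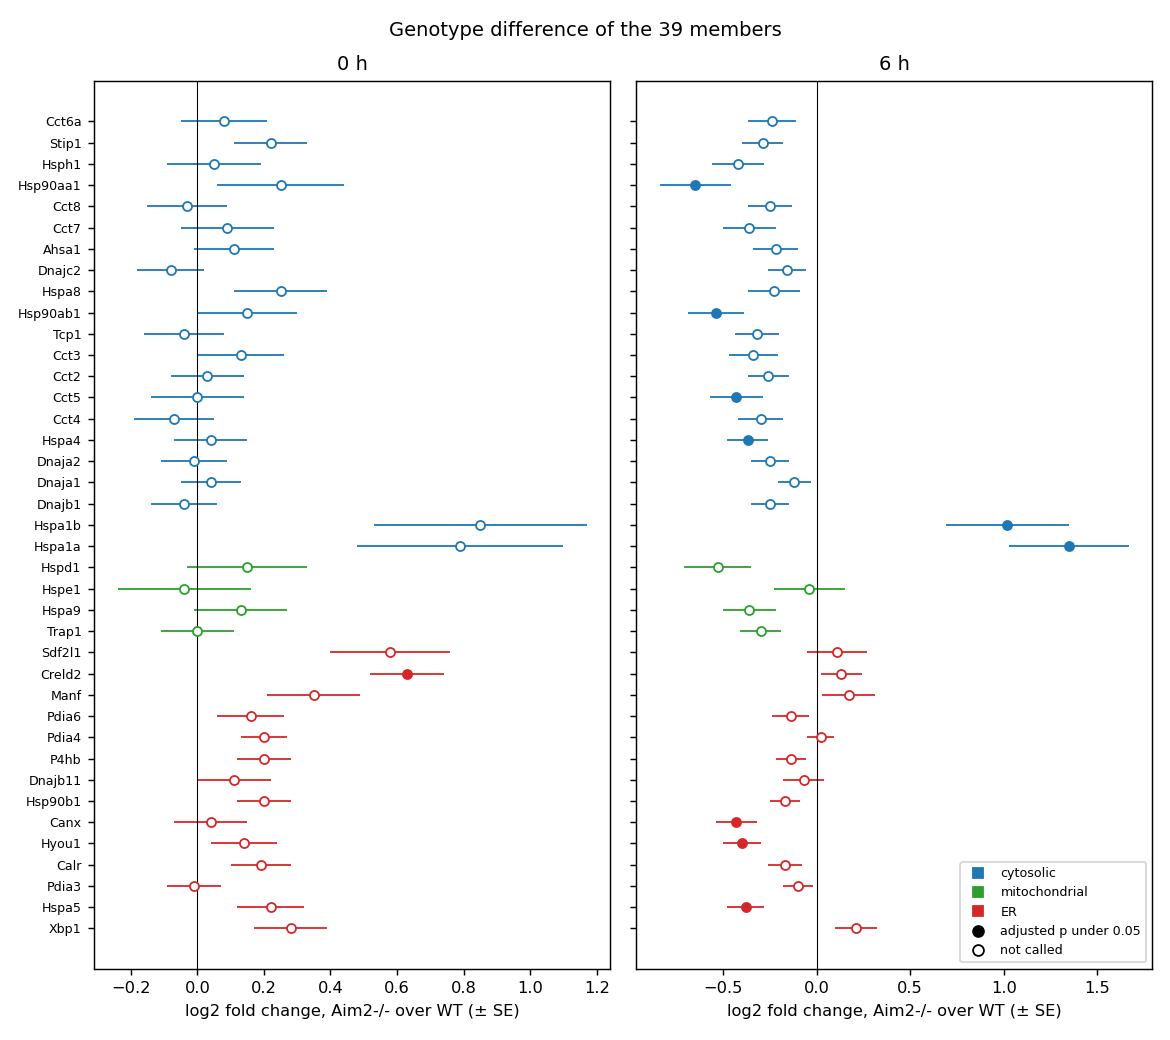
Log2 fold change of Aim2-/- over WT cells with its SE (x axis) for each of the 39 members (y axis, by compartment) at 0 h and 6 h, filled where the adjusted p was under 0.05. At 0 h most ER members lie right of 0 with Creld2 filled, and at 6 h most members lie left of 0, 7 of them filled, with Hspa1a and Hspa1b filled on the right.

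The difference of the responses was tested as an interaction of genotype and stimulation. Without a block, 0 members were called at 3, 6 and 24 h (0%, 0.0261% and 0% of all genes called), with 1, 19 and 8 members at an unadjusted p under 0.05. DESeq2 called 0, 6 and 1, and limma-voom 0 at each time. Because the libraries of 1 mouse vary together, the fit with the mouse as a block bears on this comparison. It called 12 members at 6 h (4.68% of all genes), 2 at 24 h (2.77%) and 0 at 3 h (0.0587%), in each case with a smaller response in Aim2-/- cells. At 6 h they were Hsp90aa1 (-0.93 ± 0.21), Hsp90ab1 (-0.71 ± 0.15), Hspd1 (-0.71 ± 0.18), Hspa5 (-0.61 ± 0.14), Hyou1, Stip1, Hspa8, Creld2, Cct3, Canx, Cct7 and Hspa4, with adjusted p from 0.0127 to 0.0491. At 24 h they were Creld2 (-0.54 ± 0.10, adjusted p = 0.011) and Hsp90aa1 (-0.79 ± 0.21, adjusted p = 0.0483). Without the mouse labelled WT 1 the blocked fit called 8 members at 6 h, 7 of them among the 12, and 3 at 24 h, including both Creld2 and Hsp90aa1, while without mouse Aim2-/- 1 or without WT 3 it called 0 at either time. The log2 differences of the 12 had a median of -0.52 without WT 1, -0.42 without Aim2-/- 1 and -0.47 without WT 3. Leaving out Aim2-/- 4 gave 4 calls at 6 h and 0 at 24 h, and WT 4 gave 8 and 1. In the fit without a block the interaction at 6 h was negative for 14 of 14 ER, 4 of 4 mitochondrial and 19 of 21 cytosolic members (medians -0.34, -0.40 and -0.32, beside 0.03 over all genes), and at 24 h for 14, 3 and 19 of them (medians -0.22, -0.34 and -0.26, beside 0.01). Creld2 combines a higher start with a similar level at 24 h. Marker scores were not fitted for the interaction. Plasma cell markers summed to 390 to 771 CPM at 0 h, 349 to 771 CPM at 6 h and 49.6 to 233 CPM at 24 h in Aim2-/- cells. In WT cells the sums were 43.0 to 170, 32.1 to 148 and 11.3 to 29.4 CPM. The part of other cells in the differences of the responses was not tested.

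Other folding genes, 65 in a wider list named for their function, did not all follow the members. Of these 63 were tested, since Hspb1 and Hspb8 did not pass the filter. At 24 h in WT cells 39 were called higher and 21 lower, with a median of 0.60, and in Aim2-/- cells 40 and 20 with a median of 0.49. Of all genes 36.6% were higher and 34.8% lower in WT, and 36.8% and 33.5% in Aim2-/- cells. The lower calls in the wider list were thus about as frequent as among all genes. The 9 mitochondrial genes were all called higher in both genotypes (medians 1.02 and 0.83), led by the protease subunit Clpp and the import motor protein Dnajc19. Clpp went from 21.4, 31.3 and 28.0 to 101, 105 and 111 CPM in WT cells (log2 1.97 ± 0.17) and from 27.0, 26.9 and 32.8 to 107, 97.3 and 113 CPM in Aim2-/- cells (1.87 ± 0.16). Dnajc19 rose by 1.63 ± 0.18 and 1.83 ± 0.18.

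Of the 27 genes listed as cytosolic, 16 were higher and 8 lower at 24 h in WT and 18 and 8 in Aim2-/- cells. Among all genes 36.6% were higher and 34.8% lower in WT, and 36.8% and 33.5% in Aim2-/- cells. Bag2, a co-chaperone of HSP70, rose from 1.80, 1.65 and 1.22 to 15.0, 18.6 and 19.7 CPM in WT (11.4-fold) and from 2.18, 1.33 and 2.61 to 13.9, 17.6 and 16.1 CPM in Aim2-/- cells (7.78-fold). Fkbp4, an immunophilin of the HSP90 complex, rose 5.35-fold and 4.43-fold. The J-domain genes Dnajb6 and Dnajb4 fell, as Dnajb1 did in Aim2-/- cells but further. Dnajb6 went from 89.6, 96.9 and 88.0 to 17.3, 16 and 19.9 CPM in WT cells (0.194 of 0 h, adjusted p = 8.8e-13) and to 0.217 of 0 h in Aim2-/- cells. Dnajb4 went to 0.217 and 0.214.

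The 27 genes listed with the ER divided into risers and fallers. At 3 h, 0 were higher and 13 lower in WT and 1 higher and 13 lower in Aim2-/- cells. Of all genes 16.2% were higher and 16.4% lower in WT at 3 h, and 16.1% and 14.6% in Aim2-/- cells. At 24 h 14 were higher and 13 lower in WT and 13 and 12 in Aim2-/- cells. The shares of all genes at 24 h were 36.6% and 34.8% in WT and 36.8% and 33.5% in Aim2-/- cells. Pdia5, a disulfide isomerase, rose from 0.450, 0.413 and 0.405 to 7.75, 5.91 and 4.72 CPM in WT (log2 3.84 ± 0.46) and from 1.31, 0.591 and 1.38 to 7.58, 6.75 and 6.97 CPM in Aim2-/- cells (2.69 ± 0.42). Fkbp2, a luminal prolyl isomerase, rose by 1.96 ± 0.21 and 1.80 ± 0.21. Ern1 and Eif2ak3, which encode sensors that start the unfolded protein response, fell most. Ern1 (IRE1), the kinase and nuclease that splices Xbp1, went from 124, 112 and 173 to 10.8, 8.99 and 10.1 CPM in WT and from 205, 138 and 128 to 12.5, 12.1 and 9.07 CPM in Aim2-/- cells. That is 0.0729 and 0.0714 of the 0 h level (log2 -3.78 ± 0.23, adjusted p = 7.1e-12, and -3.81 ± 0.23, adjusted p = 8.7e-12). Eif2ak3 (PERK), the kinase that slows translation on ER stress, went to 0.141 and 0.164 of 0 h (adjusted p = 7.9e-14 and 3.1e-13). Atf6, the remaining sensor, was 1.53-fold higher in WT cells (adjusted p = 0.00713) and at 0.963 of 0 h in Aim2-/- cells (adjusted p = 0.807). Ern1 and Eif2ak3 were thus lower at 24 h in each of the 6 mice, while Sdf2l1, Calr and Hspa5 were higher in each.

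**Figure D5:**
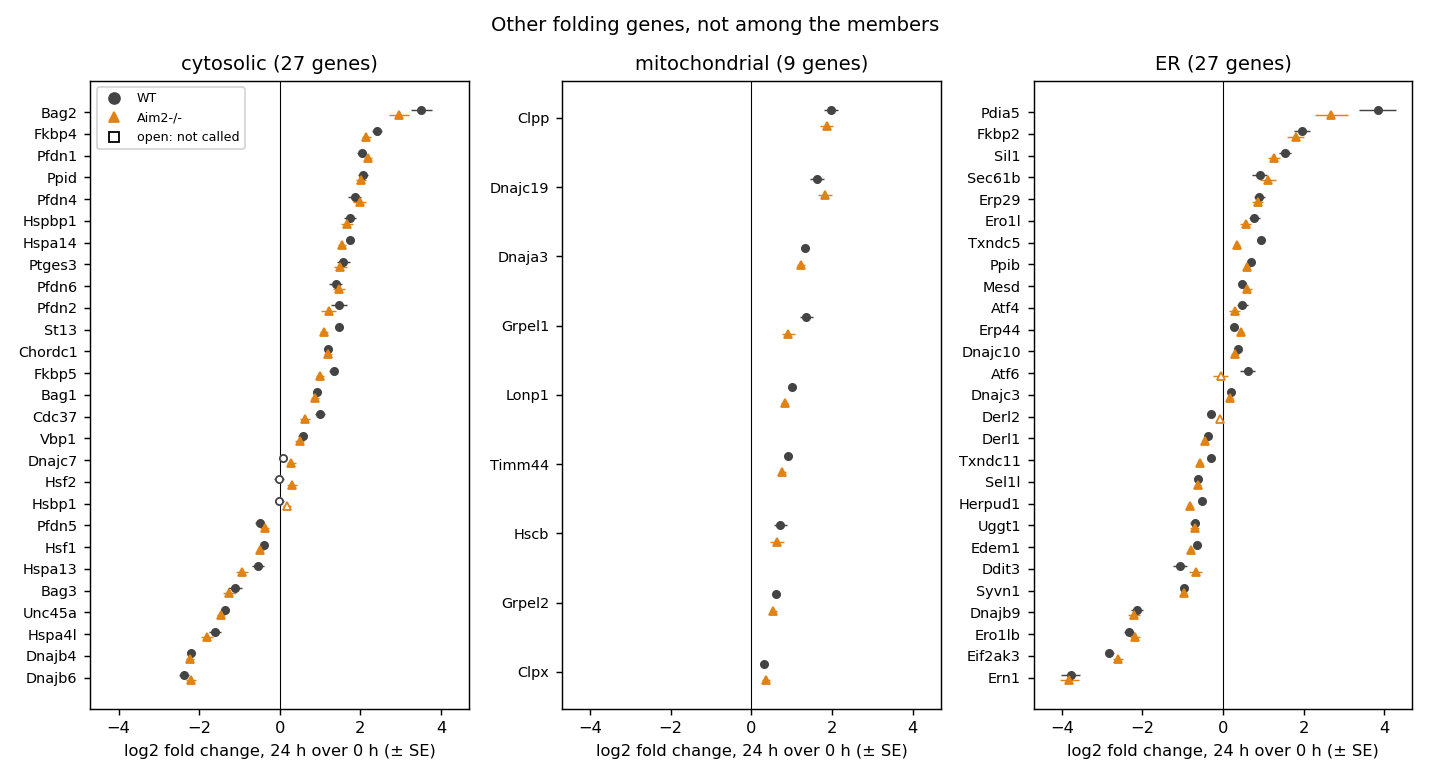
Log2 fold change at 24 h against 0 h with its SE (x axis) of the 63 tested genes of the wider list, 27 cytosolic, 9 mitochondrial and 27 ER genes, in WT (circles) and Aim2-/- cells (triangles), open where not called. The mitochondrial genes all lie above 0, while the ER genes reach from Ern1 at -3.78 to Pdia5 at 3.84 in WT cells.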

How the data were processed

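The authors aligned reads with STAR to GRCm38 and deposited raw counts per Ensembl gene, per the labels a TruSeq stranded mRNA library, with no normalization. Whether strand was used in counting is not given in the sources used here. The submitters' processing notes also name DESeq2 and edgeR. GENCODE M21 gave symbols for 54409 identifiers. Counts of the 24 libraries (8 groups of 3 mice) were fitted with edgeR 4.0.16 (R 4.3.3) with 1 mean per group, TMM factors and filterByExpr (minimum count 10), leaving 15325 genes at a common dispersion of 0.0346. Tests were two-sided quasi-likelihood F tests adjusted after Benjamini and Hochberg in each of 15 comparisons. CPM used TMM-scaled totals, log2 CPM a prior count of 2, and TPM the joined length of all annotated exons of a gene. Alternatives were DESeq2 1.42.0, limma-voom 3.58.1, other size factors and filters, a mouse block, marker scores and each mouse left out.

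The labels repeat the same numbers at each time, and the 4 libraries of a number within a genotype were taken as 1 animal. Deviations from group means correlated with r from 0.139 to 0.567 in the 36 pairs of libraries from 1 mouse and from -0.432 to 0.0742 in the 72 pairs of different mice within a genotype. Members, lists and rules were chosen with earlier results of these data known. Named with full values were, per compartment, the 3 members with the largest change at 24 h and (cytosol, ER) at 3 h, members opposite to their compartment's median, up to 6 members called between genotypes, and the extremes of the wider list. Hspa8, Hspa4, Cct5 and others were added after their values were seen. The pipeline was tested on simulated data. Marker genes are reported as sums, apart from those named as having no count.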

Additional observations from a re-analysis of the deposited data

Results flagged for a closer look

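The responses of 12 members at 6 h and of 2 at 24 h differed between the genotypes by the interaction test with the mouse as a block, each with the smaller rise in Aim2-/- cells. At 6 h the differences of the log2 fold changes were -0.93 for Hsp90aa1, -0.71 for Hsp90ab1, -0.71 for Hspd1, -0.61 for Hspa5, -0.54 for Hyou1, -0.52 for Stip1, -0.50 for Hspa8, -0.49 for Creld2, -0.48 for Cct3, -0.48 for Canx, -0.46 for Cct7 and -0.42 for Hspa4, with edgeR's adjusted p between 0.0127 and 0.0491. At 24 h they were -0.54 for Creld2 and -0.79 for Hsp90aa1. Without the block none of these was called by edgeR's test. In the blocked fit 7 of the 12 were kept at 6 h without the mouse labelled WT 1, and none without Aim2-/- 1 or WT 3. At 6 h 4.68% and at 24 h 2.77% of all genes were called in the blocked fit. Mouse Aim2-/- 1 had the lowest 6 h level of Hsp90aa1, Hsp90ab1, Hspd1, Hspa5 and Hyou1, with 81.6, 2633, 148, 991 and 326 CPM, and also the lowest Il2ra and Myc, with 547 and 356 CPM. Its 6 h library also had the highest sums of plasma cell (771 CPM), B cell (46.8 CPM), myeloid (201 CPM), erythroid (485 CPM) and basophil markers (130 CPM). The part of activation and of other cells in these differences was not tested.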

How the results depend on the processing

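Of the 181 stimulation calls of single members, 152 were kept under every alternative, as were 68 of the 70 step calls and 0 of the 10 genotype calls, and none changed direction. The mouse block dropped 0 of the stimulation and step calls and added 6 in WT and 7 in Aim2-/- cells at 3 h. Leaving out each mouse gave 12 to 24 members called in WT cells at 3 h (main count 23) and 8 to 18 in Aim2-/- cells (14), where library totals alone gave 22. Between genotypes, leaving out a mouse gave 0 to 4 calls at 0 h, 0 to 2 at 3 h, 0 to 19 at 6 h and 0 to 10 at 24 h. At 0 h DESeq2 and no filter each called 2. At 6 h DESeq2 called 21, no filter 18, a minimum mean of 1 CPM 19 and the marker scores 0. At 24 h no filter called 1. Mouse numbers shared between genotypes name different animals (r from -0.165 to 0.3 in 32 pairs), and a replicate block on that number called 7, 7, 23 and 11 at 0, 3, 6 and 24 h. For the interaction the replicate block on the mouse called 12 at 6 h and 2 at 24 h, DESeq2 6 and 1, no filter 1 at 6 h, and leaving out a mouse 0 to 2 at both times. The blocked interaction with a mouse left out, added after seeing the data, called 0 to 15 at 6 h, 0 to 7 at 24 h and 0 at 3 h. The ER median in WT cells was 1.13 at 6 h with library totals (main 1.04) and 1.13 to 1.24 at 24 h without a mouse (main 1.23), and in Aim2-/- cells 0.23 at 3 h with library totals (main 0.11). The causes were not tested. Depth limits the lowest members: 3 counts are up to 0.155 CPM, and Hspa1a had 0.354 CPM at its lowest.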
